A study of Mus musculus with 6 samples.

Results

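The 47 genes described here encode the machinery that copies DNA once per cell cycle and repairs it. They were taken by symbol from the protein-coding gene table. All 47 were among its 22482 genes, and all 47 reached at least 0.5 FPKM (fragments per length of transcript and per depth of library) in at least 3 of the 6 libraries, so each was among the 11612 genes tested and none was lost to the filter on low values. The cells were vascular smooth muscle cells from the aorta of C57BL/6 mice, cultured in medium with serum and exposed to adenovirus for 48 h. One group holds 3 libraries labelled as given a Myocd knockdown adenovirus, and the other holds 3 libraries labelled as given a negative control adenovirus. The design text calls the control group wildtype cells, and if it received no virus, effects of virus and of Myocd cannot be told apart. The labels do not tell separate cultures or animals apart, and p-values then describe library-to-library spread that may be technical. The question behind the series is how myocardin, a coactivator of serum response factor, maintains these cells.

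The targeted gene went against its label. Myocd had 131.7, 130.1 and 145.5 FPKM in the libraries labelled knockdown, against 0.0355, 0 and 0.125 FPKM in the libraries labelled control. The groups did not overlap, and the exact two-sided permutation test gave p = 0.1, the smallest that 20 arrangements of 3 against 3 allow. Libraries keep the names of their labels here, and "fell" or "rose" describes the libraries labelled knockdown, in which Myocd was high, against the libraries labelled control, in which it was near 0. Of the defining smooth muscle markers, Acta2 had 332.3 to 346.2 FPKM in the libraries labelled knockdown and 63.1 to 71.5 FPKM in those labelled control. Tagln had 5.49 to 8.69 FPKM in the libraries labelled knockdown and 0 to 1.65 FPKM in those labelled control, and Myh11 and Cnn1 stayed under 0.4 FPKM in all 6. Smtn, from the same list, overlapped, with 52.5 to 60.4 FPKM in the libraries labelled knockdown and 51.3 to 64.7 FPKM in those labelled control. Des had 120.5 to 126.7 FPKM in the libraries labelled knockdown and 107.2 to 108.9 FPKM in those labelled control. Lmod1 had 0.583 to 0.825 FPKM in the libraries labelled knockdown and 0.0673 to 0.0937 FPKM in those labelled control. The mesothelial and epithelial marker list summed to 302.2 to 324.6 FPKM in the libraries labelled knockdown and 320.0 to 351.6 FPKM in those labelled control, nearly all of it Krt19 and Msln, with Epcam at 0. The fibroblast list summed to 59.5 to 70.8 FPKM in the libraries labelled knockdown and 59.8 to 70.2 FPKM in those labelled control. The macrophage list summed to 4.23 to 5.53 FPKM in the libraries labelled knockdown and 2.83 to 5.33 FPKM in those labelled control. The endothelial list summed to 1.30 to 2.43 FPKM in the libraries labelled knockdown, against 0.447 to 1.01 FPKM in those labelled control. Most of the endothelial difference was Vwf, at 0.963 to 1.61 FPKM in the libraries labelled knockdown and 0.102 to 0.306 FPKM in those labelled control. Pecam1, Cdh5 and Kdr had lower means in the libraries labelled knockdown, Tek and Cldn5 higher ones, and each stayed under 0.5 FPKM. The part of these markers in the results below was not tested. Replicate 3 of each group stood apart from the other libraries: with the group in the model, edgeR called 254 genes between the replicate 3 libraries and the rest, against 0 and 1 for replicates 1 and 2, while limma called 1, against 0 and 0. The libraries labelled knockdown held 9117650, 8937958 and 7528160 recovered fragments of protein-coding genes. Those labelled control held 9793793, 9304247 and 9303524, so the groups did not overlap in depth. The part of depth in the results below was not tested. In bulk RNA, fewer cycling cells and less RNA per cell cannot be told apart.

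As background, replication origins are licensed in G1, when the origin recognition complex with Cdc6 and Cdt1 loads the Mcm2 to Mcm7 helicase ring onto DNA. In S phase Cdc45 and the GINS proteins turn that ring into the active helicase, polymerase alpha and primase lay down primers, polymerases epsilon and delta extend them, and replication factor C loads the sliding clamp Pcna. Many of these genes are transcribed under E2F factors as cells leave G1, and smooth muscle cells in the vessel wall cycle rarely while the same cells in serum-fed culture cycle freely.

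The letters that E2F factors are known to bind were searched in the promoters of the 47 genes, since many genes of this kind are known E2F targets and the choice of members did not use promoter sequence. The RefSeq promoter table (GRCm38.p6) holds 46 windows for 40 of the genes, each from 250 bases before to 50 bases after a start site; Pole, Rfc2, Gins1, Gins2, Mcm4, Ccne2 and Prim2 have none there. The letters searched on both strands were TTTCCCGC, TTTGGCGC, TTTCGCGC and TTTGCCGC, and 1 stretch can match more than 1 of them. They were present in 16 of 46 windows (34.8%), against 744 of 32851 windows over all genes (2.26%). Among the genes that fell in the test below the share was 7 of 12 windows (58.3%), and among those that did not pass it was 9 of 34 (26.5%). Counted by gene these were 7 of 11 (63.6%) and 9 of 29 (31.0%). All of the genes that fell and hold the letters, except Pold1, are helicase loading and licensing genes. Role and passing were therefore not separated in this contrast, which was not tested. A match describes the letters and not a site that is used. The following stretches of 30 bases, read 5′ to 3′ on the strand of the gene, show the match in each of the 7 genes that fell and have one, with the matched letters in capitals.
Mcm3, chr1:20820275-20820304, minus strand: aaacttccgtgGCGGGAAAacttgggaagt
Orc1, chr4:108579416-108579445, plus strand: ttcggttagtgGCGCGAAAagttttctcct
Mcm7, chr5:138171849-138171878, minus strand: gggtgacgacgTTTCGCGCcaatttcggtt
Pold1, chr7:44548766-44548795, minus strand: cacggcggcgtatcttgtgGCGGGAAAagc
Mcm5, chr8:75109347-75109376, plus strand: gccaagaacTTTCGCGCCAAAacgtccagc
Cdt1, chr8:122568035-122568064, plus strand: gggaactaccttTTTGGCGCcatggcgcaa
Cdc6, chr11:98908002-98908031, plus strand: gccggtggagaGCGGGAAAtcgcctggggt

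The matches sit at different distances from the start site. In Cdc6 and Mcm5 they begin 138 and 153 bases before it, in Orc1 27 bases before it, and in Mcm3, Mcm7, Cdt1 and Pold1 the matches shown begin 19, 16, 32 and 39 bases after it. Mcm3 and Mcm7 each hold 2 separate matches in the window, and in Mcm5 a pair of overlapping matches on opposite strands runs over 12 bases. Mcm2, Rfc4, Rrm2 and Pms2, which also fell, have windows in which these letters are not present. By role, the letters were in 7 of 12 windows of helicase loading and licensing genes, 4 of 8 windows of polymerases and primase, 1 of 5 of the clamp and its loader, 1 of 7 of single-strand binding and Okazaki fragment genes, 2 of 5 of repair genes, 1 of 4 of chromatin genes, 0 of 3 of nucleotide supply genes and 0 of 2 of G1/S regulators. The CCAAT letters that NF-Y binds were in 27 of 46 windows (58.7%), against 37.4% of all windows, and the CHR letters TTTGAA or TTCGAA, known from genes of G2 and mitosis, were in 6 of 46 (13.0%), against 19.2% of all. In a list of 20 G2/M genes set beside them, of which 17 have a window, the E2F letters were in 1 window, the CCAAT letters in 15 and the CHR letters in 13.

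**Figure D1:**
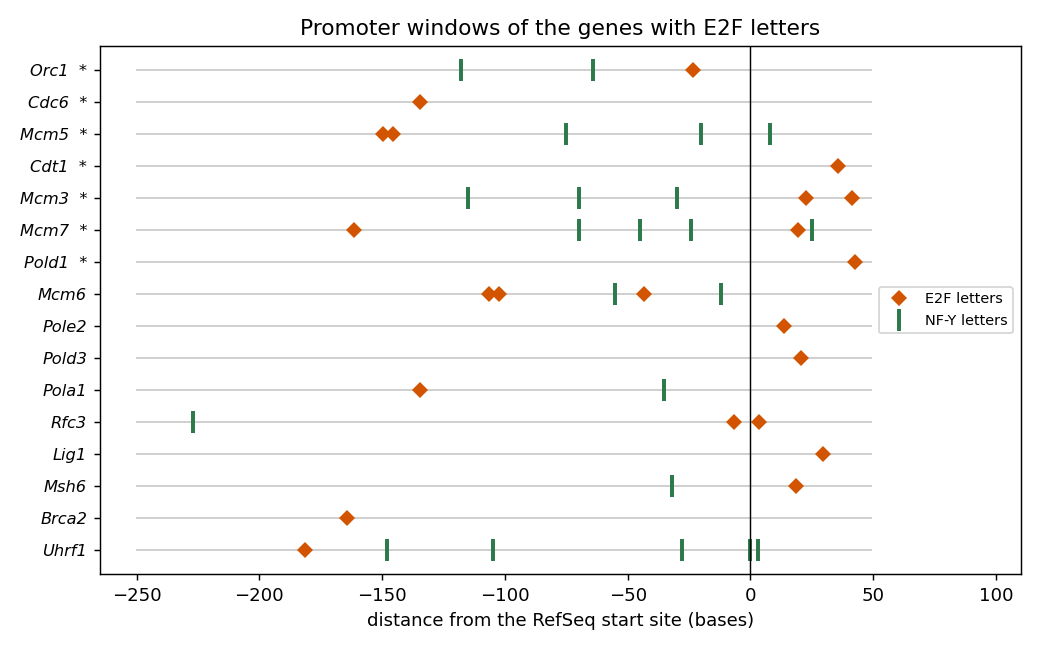
Positions of the E2F letters (orange diamonds) and of the CCAAT letters bound by NF-Y (green bars) in the RefSeq promoter windows of the 16 genes that hold E2F letters, as distance in bases from the start site, with the windows of a gene that has several laid over each other. Genes with an asterisk, 7 of the 16, fell in the libraries labelled knockdown, and their diamonds lie both before and after the start site.

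In the comparison of the groups, 11 of the 47 genes fell in the libraries labelled knockdown and 0 rose. The 11 genes passed at a limma adjusted p under 0.05, namely Mcm2, Mcm3, Mcm5, Mcm7, Cdc6, Cdt1, Orc1, Pold1, Rfc4, Rrm2 and Pms2. Over all 11612 genes tested, 3.44% passed in either direction, 1.61% lower and 1.83% higher. The median log2 fold change was -0.23 for the 47 genes and -0.01 for all tested genes, and 42 of 47 estimates were negative. The summed level of the 47 genes was 1401, 1422 and 1412 FPKM in the libraries labelled knockdown, against 1628, 1613 and 1635 FPKM in those labelled control, so the groups did not overlap. In 26 genes all 3 libraries labelled knockdown lay below all 3 labelled control (15.6% of all tested genes did), and in 1 gene, Ccne1, all 3 lay above (13.3% of all). At an unadjusted limma p under 0.05, 28 genes were lower and 0 higher, where 12.2% of all tested genes were lower.

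These calls depended on having all libraries. Without 1 library, the number of the 47 genes that fell was 1, 1 and 7 when knockdown replicates 1, 2 and 3 were left out in turn, and 1, 1 and 5 when control replicates 1, 2 and 3 were left out. Over all genes, the same fits called 60, 60 and 178, then 52, 44 and 165, against 400 with all 6 libraries. Without both replicate 3 libraries 0 of the 47 genes passed, where 76 of 11647 tested genes did (0.653%, with 0.24% lower and 0.412% higher). At an unadjusted limma p under 0.05 in that fit, 24 of the 47 genes were lower and 0 higher. Of the 11612 genes tested with all 6 libraries, 1307 were lower and 1157 higher at the same threshold in the same fit. The median of the 47 genes was -0.20, and edgeR was not run on those 4 libraries. The lowest limma adjusted p values of the 47 genes in that fit were 0.0543 for Mcm7, 0.0566 for Pold1 and 0.0590 for Rfc4. Mcm3, Mcm5 and Cdt1 each had 0.0629. Pold1 passed in each of the 6 fits with 1 library left out, Mcm5, Cdt1 and Rfc4 in 2, Mcm3, Mcm7 and Cdc6 in 1, and Mcm2, Orc1, Rrm2 and Pms2 in 0. The direction of the 11 genes was lower in every one of these 7 fits.

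**Figure D2:**
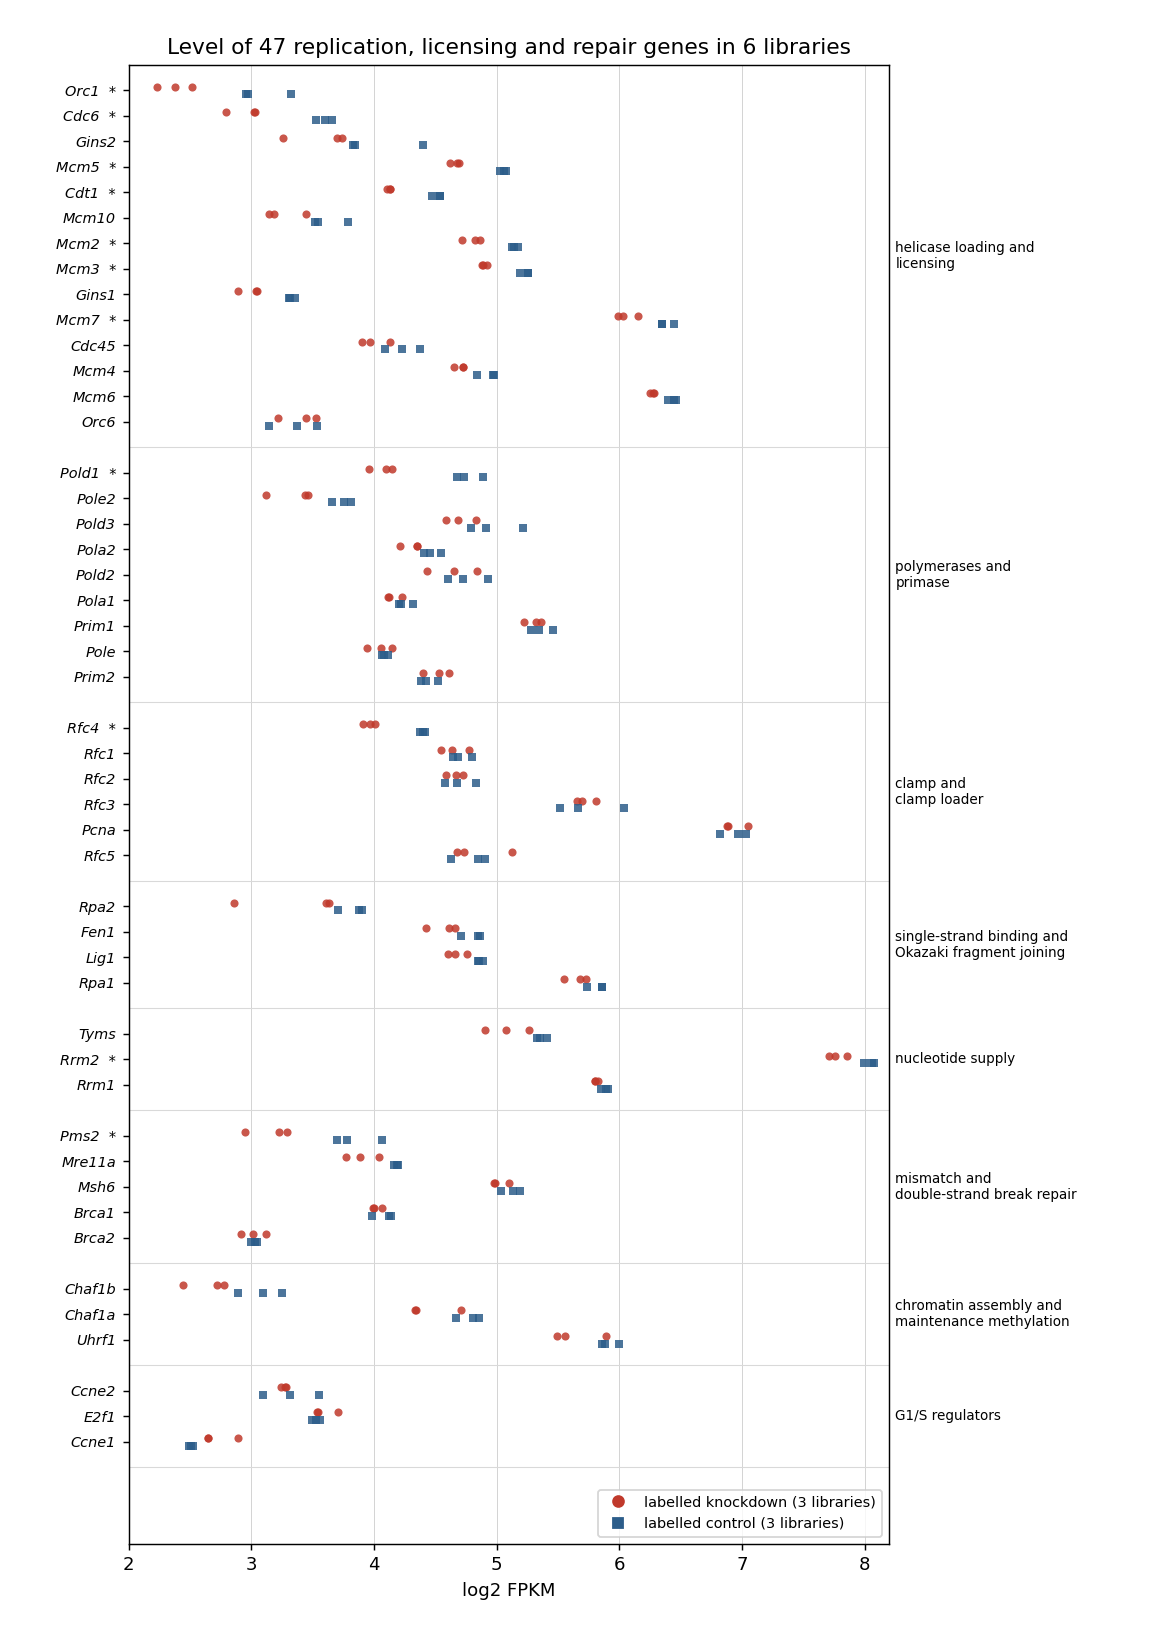
Level of the 47 genes in log2 FPKM, grouped by role, with each library labelled knockdown as a red circle above each library labelled control as a blue square; an asterisk marks the 11 genes that fell. Red circles lie left of the blue squares without overlap in 26 genes, 12 of them in the upper block of helicase loading and licensing genes.

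The helicase and its loaders held 7 of the 11 genes that fell, out of 14 in this role. Their median log2 fold change was -0.34, and 12 of 14 had no overlap between groups. These 14 genes were chosen with earlier results of these data known. Within the Mcm2 to Mcm7 ring, whose subunits form one hexamer around DNA, all 6 estimates were negative and all 6 subunits had no overlap between groups, 4 of 6 passing the test. Mcm5 had 25.5, 25.8 and 24.6 FPKM in the libraries labelled knockdown, against 33.3, 32.7 and 33.7 FPKM in those labelled control. Mcm3 had 30.4, 29.6 and 29.5 FPKM in the libraries labelled knockdown, against 38.2, 38.1 and 36.4 FPKM in those labelled control. Mcm2 had 28.4, 29.1 and 26.3 FPKM in the libraries labelled knockdown, against 36.0, 35.3 and 34.9 FPKM in those labelled control. In all 3 of these subunits, each library labelled knockdown was below each library labelled control, and the fitted changes were close to each other: Mcm5 at a log2 fold change of -0.39 (SE 0.05, limma adjusted p = 0.0133), Mcm3 at a log2 fold change of -0.33 (SE 0.05, limma adjusted p = 0.0186), and Mcm2 at a log2 fold change of -0.34 (SE 0.06, limma adjusted p = 0.0278). Mcm7 had 63.4, 65.5 and 71.0 FPKM in the libraries labelled knockdown, against 81.5, 81.5 and 87.4 FPKM in those labelled control. Mcm7 also did not overlap between groups (log2 fold change -0.33, SE 0.06, limma adjusted p = 0.0322). The other 2 subunits had smaller estimates that missed the threshold. Mcm6 had 78.0, 77.3 and 76.1 FPKM in the libraries labelled knockdown, against 87.3, 88.0 and 84.3 FPKM in those labelled control, the highest level in the ring, with a log2 fold change of -0.17 (SE 0.04, limma adjusted p = 0.0674). Means here and below are ± SD over the 3 libraries of a group. Mcm4 averaged 26.0 ± 0.742 FPKM in the libraries labelled knockdown and 30.5 ± 1.63 FPKM in those labelled control, with a log2 fold change of -0.23 (SE 0.06, limma adjusted p = 0.0834). With edgeR's quasi-likelihood test on recovered fragments, 6 of 6 subunits passed, Mcm4 at an adjusted p of 0.0169 and Mcm6 at 0.0165.

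Of the loaders of the ring, Orc1, Cdc6 and Cdt1 fell as well and Orc6 did not pass. Orc1 and Cdc6 are the related ATPases that open the way for loading, and Cdt1 carries the ring to them. Orc1 had 4.70, 5.20 and 5.71 FPKM in the libraries labelled knockdown, against 7.85, 10.0 and 7.77 FPKM in those labelled control. Cdc6 had 8.11, 8.19 and 6.92 FPKM in the libraries labelled knockdown, against 11.5, 12.6 and 12.2 FPKM in those labelled control. Cdt1 had 17.6, 17.5 and 17.2 FPKM in the libraries labelled knockdown, against 23.2, 23.2 and 22.2 FPKM in those labelled control. The groups did not overlap in any of the 3 genes, and each fell, Orc1 with a log2 fold change of -0.70 (SE 0.13, limma adjusted p = 0.0414), Cdc6 with a log2 fold change of -0.64 (SE 0.09, limma adjusted p = 0.0191) and Cdt1 with a log2 fold change of -0.39 (SE 0.05, limma adjusted p = 0.0174). Orc1 was the largest fall among the 47 genes in FPKM, though in fragments scaled to library size its estimate (-0.43) was smaller than those of Pold1, Cdc6 and Rpa2, and its FPKM level varied more between control libraries than that of Cdt1. The difference between the loaders and the ring was not tested. Orc6, the smallest subunit of the origin recognition complex, did not pass: it averaged 10.6 ± 1.16 FPKM in the libraries labelled knockdown and 10.3 ± 1.38 FPKM in those labelled control (SD, n = 3 each), with a log2 fold change of 0.05 and a 95% interval of -0.25 to 0.35.

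The genes that activate the loaded ring had negative estimates that did not pass. Gins1 averaged 7.97 ± 0.472 FPKM in the libraries labelled knockdown and 10.0 ± 0.193 FPKM in those labelled control, with a log2 fold change of -0.33 (SE 0.08, limma adjusted p = 0.0751), and Gins2 averaged 11.96 ± 2.08 FPKM in the libraries labelled knockdown and 16.5 ± 3.91 FPKM in those labelled control, with a log2 fold change of -0.45 (SE 0.19, limma adjusted p = 0.212); both encode subunits of the GINS complex. Cdc45 averaged 16.0 ± 1.32 FPKM in the libraries labelled knockdown and 18.9 ± 1.87 FPKM in those labelled control, with a log2 fold change of -0.23 (SE 0.10, limma adjusted p = 0.212). Mcm10 averaged 9.61 ± 1.12 FPKM in the libraries labelled knockdown and 12.3 ± 1.30 FPKM in those labelled control, with a log2 fold change of -0.36 (SE 0.11, limma adjusted p = 0.133); Mcm10 is a scaffold needed for the ring to start unwinding. In FPKM, Gins1, Gins2 and Mcm10 did not overlap between groups, while Cdc45 did. Gins2 had 21.0 FPKM in control replicate 3, beside 14.2 and 14.4 FPKM in the other libraries labelled control. Its log2 fold change was -0.27 without that library, -0.12 without both replicate 3 libraries and -0.25 by edgeR on fragments, where its groups overlapped.

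**Figure D3:**
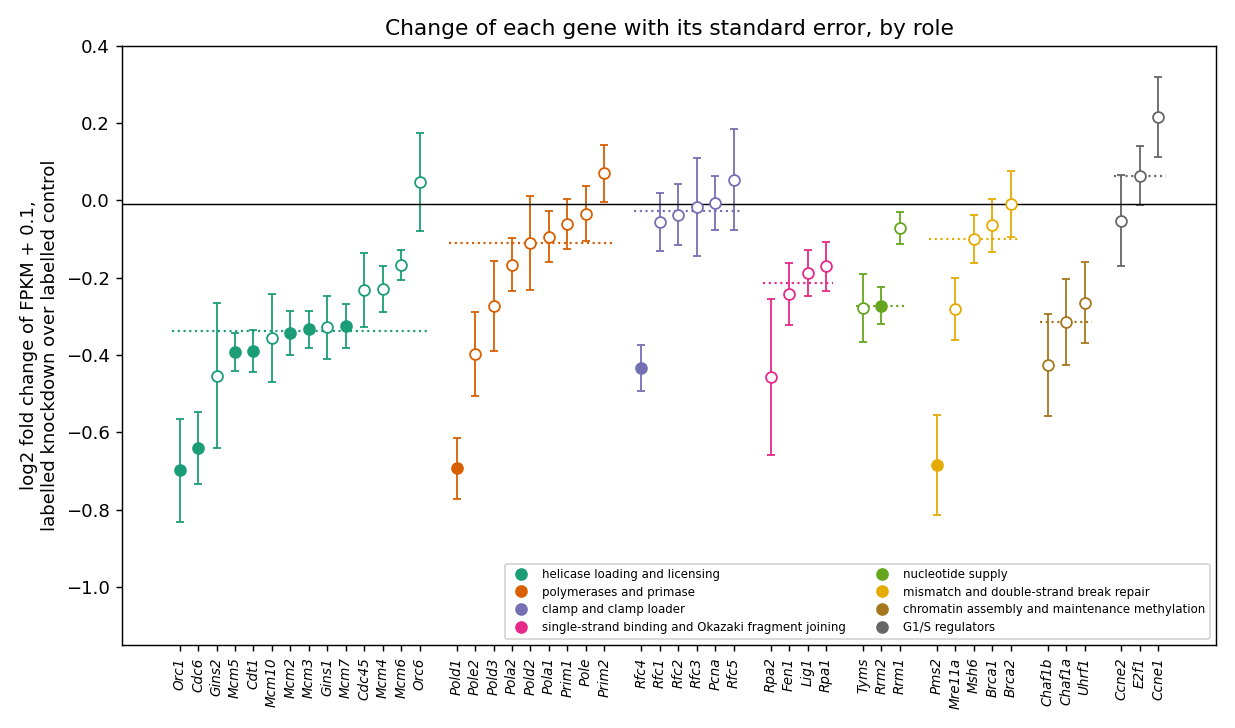
Log2 fold change of FPKM + 0.1, libraries labelled knockdown over libraries labelled control, for each of the 47 genes with its standard error, grouped by role; filled points fell at a limma adjusted p under 0.05, dotted lines are the medians of each role and the solid line is the median of all tested genes. Filled points make up 7 of 14 genes in the first role and at most 1 in each other role.

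The 9 polymerase and primase genes had a median log2 fold change of -0.11. Their groups did not overlap in 3 of the 9 genes in FPKM and in 6 of 9 in fragments. Of the 9 genes, 1 fell. That gene was Pold1, the catalytic subunit of polymerase delta, which extends the lagging strand. Pold1 had 17.1, 17.7 and 15.6 FPKM in the libraries labelled knockdown, against 29.5, 25.5 and 26.6 FPKM in those labelled control. Each library labelled knockdown was below each library labelled control, with a log2 fold change of -0.69 (SE 0.08, limma adjusted p = 0.0103), the smallest p among the 47 genes. The accessory subunits of the same enzyme did not pass: Pold2 averaged 25.1 ± 3.53 FPKM in the libraries labelled knockdown and 27.1 ± 3.15 FPKM in those labelled control, with a log2 fold change of -0.11 (SE 0.12, limma adjusted p = 0.63), and Pold3 averaged 26.1 ± 2.18 FPKM in the libraries labelled knockdown and 31.7 ± 4.93 FPKM in those labelled control, with a log2 fold change of -0.27 (SE 0.12, limma adjusted p = 0.222). The ratio of Pold1 to the mean of Pold2 and Pold3 in FPKM was 0.627, 0.718 and 0.623 in the libraries labelled knockdown, against 1.14, 0.902 and 0.784 in those labelled control, a ratio formed after the values were seen and not tested.

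In polymerase epsilon, which extends the leading strand, the accessory subunit Pole2 had the larger estimate. Pole2 had 11.03, 10.8 and 8.71 FPKM in the libraries labelled knockdown, against 14.1, 13.5 and 12.6 FPKM in those labelled control. Its groups did not overlap, but it missed the threshold (log2 fold change -0.40, SE 0.11, limma adjusted p = 0.0918), while on fragments it passed by edgeR (adjusted p = 0.0457) and did not by DESeq2 (0.116) or limma (0.0533). The catalytic subunit Pole averaged 16.6 ± 1.17 FPKM in the libraries labelled knockdown and 17.0 ± 0.272 FPKM in those labelled control (SD, n = 3 each), with a log2 fold change of -0.03 and a 95% interval of -0.20 to 0.13. The 4 genes of polymerase alpha and primase, which make the primers, had 0 calls by limma or edgeR, and Pola2 alone of them had an unadjusted limma p under 0.05. Prim1 had 37.3, 40.0 and 41.0 FPKM in the libraries labelled knockdown, against 40.7, 44.1 and 38.9 FPKM in those labelled control, the highest level among these 9 genes, and the groups overlapped (log2 fold change -0.06, SE 0.06, limma adjusted p = 0.612). Prim2 was the second largest positive estimate of the 47 genes. Prim2 had 24.4, 23.1 and 21.1 FPKM in the libraries labelled knockdown, against 21.5, 23.0 and 20.8 FPKM in those labelled control, which overlapped (log2 fold change 0.07, SE 0.07, limma adjusted p = 0.611). Pola1 averaged 17.8 ± 0.804 FPKM in the libraries labelled knockdown and 19.0 ± 0.801 FPKM in those labelled control, with a log2 fold change of -0.09 (SE 0.07, limma adjusted p = 0.435), and Pola2 averaged 19.8 ± 1.11 FPKM in the libraries labelled knockdown and 22.2 ± 1.04 FPKM in those labelled control, with a log2 fold change of -0.17 (SE 0.07, limma adjusted p = 0.211) and no overlap between groups.

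The clamp and its loader included 1 gene that fell among 6, and their median log2 fold change was -0.03 in FPKM, -0.10 by edgeR on fragments and 0.03 in FPKM without both replicate 3 libraries. The groups did not overlap in 1 of the 6 genes in FPKM and in 3 of 6 in fragments. Pcna encodes the sliding clamp that tethers the polymerases, and it had the second highest FPKM, a level per transcript length, of the 47 genes. Pcna had 118.1, 117.7 and 132.3 FPKM in the libraries labelled knockdown, against 125.4, 113.3 and 131.0 FPKM in those labelled control. The groups overlapped, the log2 fold change was -0.01, and its 95% interval ran from -0.17 to 0.16, which does not reach the Mcm5 estimate of -0.39. In fragments scaled to library size the Pcna estimate was -0.12 and its groups did not overlap. The gene that fell was Rfc4, a small subunit of the clamp loader. Rfc4 had 14.996, 15.6 and 16.1 FPKM in the libraries labelled knockdown, against 21.1, 21.4 and 20.7 FPKM in those labelled control. Its groups did not overlap (log2 fold change -0.43, SE 0.06, limma adjusted p = 0.0159). In FPKM, Rfc1, the large subunit, and Rfc2, Rfc3 and Rfc5, the other small ones, each overlapped between groups. Their log2 fold changes were -0.06, -0.04, -0.02 and 0.05. Their means were 25.2, 25.3, 52.8 and 29.1 FPKM in the libraries labelled knockdown, against 26.2, 26.0, 54.0 and 27.8 FPKM in those labelled control. In fragments scaled to library size the Rfc5 groups did not overlap, and the Rfc5 estimate was -0.19. The ratio of Rfc4 to the mean of the other 4 subunits in FPKM was 0.477, 0.456 and 0.481 in the libraries labelled knockdown, against 0.648, 0.706 and 0.550 in those labelled control. That ratio was also formed after the values were seen and was not tested.

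The genes that bind single strands and join Okazaki fragments had 0 calls among 4. All 4 estimates were negative, with a median of -0.21, and all 4 had no overlap between groups. Rpa1 had 51.1, 52.9 and 46.8 FPKM in the libraries labelled knockdown, against 58.1, 58.1 and 53.4 FPKM in those labelled control; it encodes the large subunit of the single-strand binding protein RPA, and missed the threshold (log2 fold change -0.17, SE 0.06, limma adjusted p = 0.172). Lig1 had 25.3, 27.1 and 24.3 FPKM in the libraries labelled knockdown, against 29.7, 28.8 and 28.9 FPKM in those labelled control; it encodes the ligase that seals the fragments, and had a log2 fold change of -0.19 (SE 0.06, limma adjusted p = 0.123). Fen1 averaged 23.7 ± 1.98 FPKM in the libraries labelled knockdown and 28.02 ± 1.64 FPKM in those labelled control, with a log2 fold change of -0.24 (SE 0.08, limma adjusted p = 0.139); Fen1 is the flap endonuclease that trims the fragments. For Rpa2, the middle subunit of RPA, knockdown replicate 3 stood at 7.27 FPKM beside 12.2 and 12.4 FPKM in the other libraries labelled knockdown and 13.1 to 14.9 FPKM in those labelled control, and the estimate was the least precise of the 47 genes (log2 fold change -0.46, SE 0.20, limma adjusted p = 0.234). The Rpa2 estimate was -0.21 without knockdown replicate 3 and -0.18 without both replicate 3 libraries. None of the 4 passed with edgeR on recovered fragments, and 3 of the 4 had an unadjusted limma p under 0.05.

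Nucleotide supply had 1 gene that fell among 3. Rrm2, the S-phase subunit of ribonucleotide reductase, had the highest FPKM of the 47 genes. Rrm2 had 216.0, 231.1 and 209.3 FPKM in the libraries labelled knockdown, against 269.8, 266.6 and 255.7 FPKM in those labelled control. The groups did not overlap (log2 fold change -0.27, SE 0.05, limma adjusted p = 0.0327). Rrm1 averaged 56.1 ± 0.623 FPKM in the libraries labelled knockdown and 59.0 ± 1.23 FPKM in those labelled control, with a log2 fold change of -0.07 (SE 0.04, limma adjusted p = 0.348); Rrm1 is the large subunit of the same enzyme, and its groups also did not overlap. Rrm2 over Rrm1 in FPKM was 3.87, 4.07 and 3.76 in the libraries labelled knockdown, against 4.54, 4.45 and 4.44 in those labelled control, formed after the values were seen. Tyms averaged 34.0 ± 4.17 FPKM in the libraries labelled knockdown and 41.1 ± 1.21 FPKM in those labelled control, with a log2 fold change of -0.28 (SE 0.09, limma adjusted p = 0.129); Tyms makes thymidylate.

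Among 5 repair genes, 1 fell and the median log2 fold change was -0.10. Pms2 encodes a subunit of the mismatch repair endonuclease. Pms2 had 9.37, 9.76 and 7.73 FPKM in the libraries labelled knockdown, against 16.7, 13.0 and 13.7 FPKM in those labelled control. The groups did not overlap (log2 fold change -0.69, SE 0.13, limma adjusted p = 0.0403), but edgeR on recovered fragments gave a log2 fold change of -0.31 and an adjusted p of 0.0712, so the call rests on the FPKM scale. Msh6 had 31.7, 31.5 and 34.2 FPKM in the libraries labelled knockdown, against 35.1, 36.6 and 32.8 FPKM in those labelled control, which overlapped (log2 fold change -0.10, SE 0.06, limma adjusted p = 0.382); Msh6 recognises mismatches. Mre11a averaged 14.97 ± 1.41 FPKM in the libraries labelled knockdown and 18.1 ± 0.176 FPKM in those labelled control, with a log2 fold change of -0.28 (SE 0.08, limma adjusted p = 0.102) and no overlap; it encodes the nuclease that processes double-strand breaks, and edgeR's adjusted p was 0.0137. Brca1 and Brca2, which act in homologous recombination, overlapped between groups in FPKM, while in fragments Brca2 overlapped and Brca1 did not. Brca1 averaged 16.2 ± 0.450 FPKM in the libraries labelled knockdown and 17.0 ± 0.965 FPKM in those labelled control, and Brca2 averaged 8.11 ± 0.566 FPKM in the libraries labelled knockdown and 8.15 ± 0.144 FPKM in those labelled control (SD, n = 3 each). Their log2 fold changes were -0.06 and -0.01, with 95% intervals of -0.22 to 0.10 and -0.21 to 0.19.

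The 3 genes of chromatin assembly and maintenance methylation had a median of -0.32 and 0 calls by limma in FPKM. In that fit 3 of 3 were lower at an unadjusted limma p under 0.05, and edgeR called 1, Uhrf1. Chaf1b had 5.44, 6.85 and 6.57 FPKM in the libraries labelled knockdown, against 7.42, 9.49 and 8.53 FPKM in those labelled control; it encodes a subunit of the histone chaperone CAF-1, and the groups did not overlap (log2 fold change -0.43, SE 0.13, limma adjusted p = 0.121). Chaf1a averaged 22.2 ± 3.42 FPKM in the libraries labelled knockdown and 27.5 ± 1.81 FPKM in those labelled control, with a log2 fold change of -0.32 (SE 0.11, limma adjusted p = 0.157). Uhrf1 had 47.1, 45.1 and 59.4 FPKM in the libraries labelled knockdown, against 58.1, 63.8 and 59.1 FPKM in those labelled control. Uhrf1, which brings the maintenance DNA methyltransferase to newly copied DNA, had knockdown replicate 3 inside the control range (log2 fold change -0.26, SE 0.10, limma adjusted p = 0.195). On recovered fragments the Uhrf1 estimate was -0.38 with an edgeR adjusted p of 0.000159. Limma on fragments scaled to library size also called Uhrf1 (adjusted p = 0.000169). DESeq2 called Uhrf1 (adjusted p = 1.75e-10) and Chaf1a (adjusted p = 0.0292), and gave Chaf1b no adjusted p.

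None of the 3 G1/S regulators passed in either direction, by limma or by edgeR, and 0 of 3 had an unadjusted limma p under 0.05. E2f1, the activator whose name the promoter letters carry, had 13.0, 11.6 and 11.6 FPKM in the libraries labelled knockdown, against 11.8, 11.5 and 11.3 FPKM in those labelled control, and the groups overlapped (log2 fold change 0.06, SE 0.08, limma adjusted p = 0.652). Ccne1 had 6.27, 7.41 and 6.25 FPKM in the libraries labelled knockdown, against 5.75, 5.63 and 5.70 FPKM in those labelled control. Ccne1, the cyclin E that drives S-phase entry with Cdk2, was the largest positive estimate of the 47 genes and the only one of them whose libraries labelled knockdown all lay above those labelled control, and it did not pass (log2 fold change 0.22, SE 0.10, limma adjusted p = 0.268). Its paralog Ccne2 averaged 9.63 ± 0.147 FPKM in the libraries labelled knockdown and 10.1 ± 1.58 FPKM in those labelled control (SD, n = 3 each), with a log2 fold change of -0.05.

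Set side by side, the roles differed in how many genes passed, but the differences between roles were not tested. The 47 genes were chosen with earlier results of these data known, so the shares describe these genes and not a role as a whole. Outside the 47 genes, 17 other licensing and origin firing genes had 0 calls by limma, 3 lower by edgeR and a median of -0.14. The helicase and licensing role had 7 of 14, the ring alone 4 of 6, polymerases and primase 1 of 9, clamp and loader 1 of 6, single-strand binding and fragment joining 0 of 4, nucleotide supply 1 of 3, repair 1 of 5, chromatin 0 of 3 and G1/S regulators 0 of 3. By edgeR on fragments, the medians of the 8 roles in the same order, with the ring left out, were -0.32, -0.12, -0.10, -0.19, -0.21, -0.09, -0.38 and 0.08, and the genes called lower numbered 9, 2, 1, 0, 1, 1, 1 and 0. Without both replicate 3 libraries the repair median in FPKM was -0.18. Taken library by library, the helicase and licensing genes had a median of -0.29, -0.33 and -0.42 relative to the control mean in the libraries labelled knockdown, against 0.01, 0.02 and -0.03 in those labelled control. The polymerase and primase genes had -0.14, -0.10 and -0.14 in the libraries labelled knockdown, against -0.02, 0.02 and -0.03 in those labelled control. For the clamp and its loader the values were -0.10, -0.05 and 0.00 in the libraries labelled knockdown, against -0.01, -0.09 and 0.09 in those labelled control, which overlapped. Repair genes and G1/S regulators also overlapped between groups, while single-strand binding, nucleotide supply and chromatin genes did not. Over all 47 genes the library medians were -0.20, -0.19 and -0.21 in the libraries labelled knockdown and 0.01, 0.00 and -0.02 in those labelled control.

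**Figure D4:**
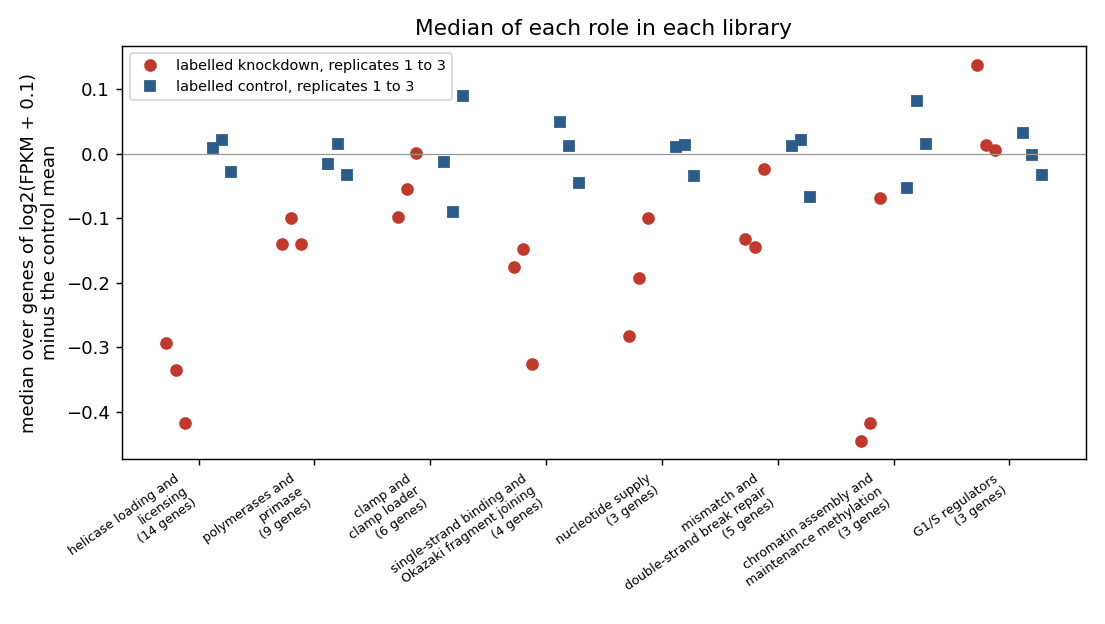
Median over the genes of each role of log2(FPKM + 0.1) minus the control mean, 1 point per library, with the 3 libraries labelled knockdown as red circles left of the 3 labelled control as blue squares. The red circles lie below the blue squares without overlap in 5 roles and overlap them in the clamp and clamp loader, repair and G1/S roles.

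The FPKM and the fragment number of a gene gave different estimates for some genes. The deposited scaled count per FPKM, which carries the length assigned to a gene's transcripts, varied between libraries and differed between group means by more than 0.1 on the log2 scale in 9 of the 47 genes (19.1%), against 21.2% of all genes. Pms2 had the largest such difference, at 0.36, and its log2 fold change was -0.69 in FPKM and -0.31 in fragments scaled to library size (fragments below). Orc1 differed by 0.26 (-0.70 in FPKM, -0.43 in fragments), Pold1 by 0.17 (-0.69 and -0.51) and Cdc6 by 0.12 (-0.64 and -0.51). Gins2 and Mcm10 differed the same way, by 0.18 and 0.13. In Rfc5, Pcna and Uhrf1 the difference ran the other way, at -0.26, -0.13 and -0.13, and in fragments Pcna stood at -0.12 (edgeR adjusted p = 0.0878) and Rfc5 at -0.19 (edgeR adjusted p = 0.0709). Limma on fragments scaled to library size called 14 of the 47 genes lower and 0 higher, where 8.88% of 12154 genes passed, 3.83% lower and 5.05% higher. These were 10 of the 11 genes called in FPKM, all but Pms2, with Mcm4, Mcm6, Mre11a and Uhrf1. EdgeR on recovered fragments called 15 of the 47 genes lower and 0 higher, where 9.95% of 11563 genes passed, 4.5% lower and 5.45% higher. DESeq2 gave no adjusted p to 5 of the 47 genes and called 14 of the others lower and 0 higher. Of all 7714 genes with an adjusted p from DESeq2, 9.37% passed, 4.19% lower and 5.19% higher. In fragments, 32 of the 47 genes had all 3 libraries labelled knockdown below all 3 labelled control, as had 18.2% of all tested genes.

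**Figure D5:**
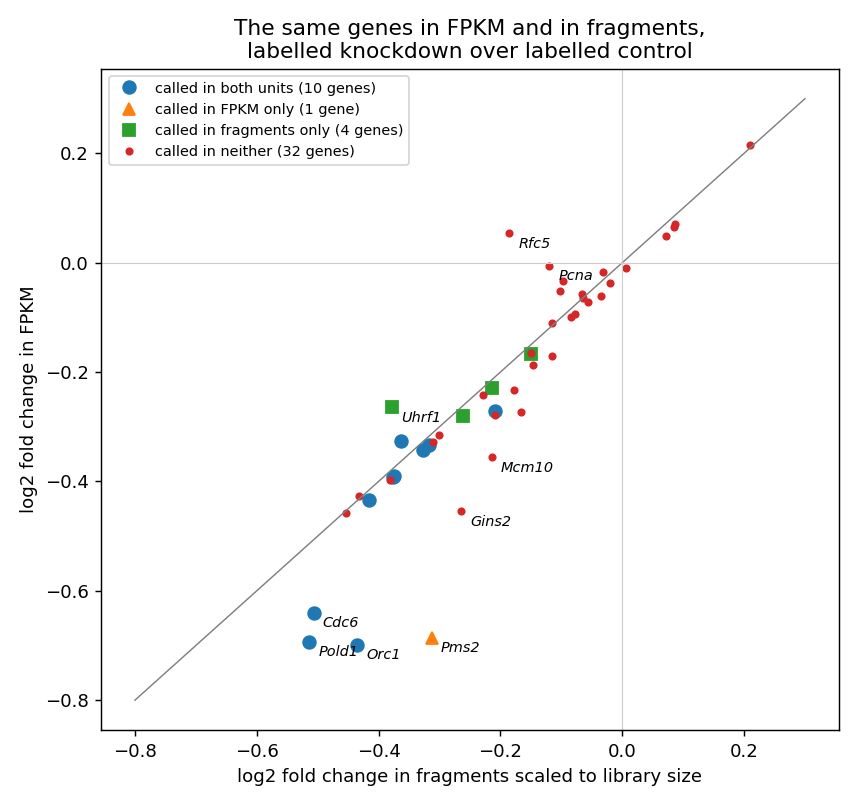
Log2 fold change of each of the 47 genes, libraries labelled knockdown over libraries labelled control, in fragments scaled to library size (horizontal) and in FPKM (vertical), with the line of equal change and the names of the 9 genes whose scaled count per FPKM differed by more than 0.1. Of the genes, 10 were called in both units, 1 in FPKM, 4 in fragments and 32 in neither, and Pms2, Orc1, Pold1 and Cdc6 lie below the line.

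The other genes of the pathway were read from lists of 100 genes, of which 99 were tested. Of these, 3 fell by limma, 1 rose and 95 did not pass, with a median log2 fold change of -0.14 and 79 negative estimates. EdgeR called 23 of them lower and 3 higher. Among those that fell, Bard1, the partner of Brca1, had 11.1, 11.9 and 11.5 FPKM in the libraries labelled knockdown, against 14.98, 15.3 and 15.8 FPKM in those labelled control (log2 fold change -0.42, SE 0.07, limma adjusted p = 0.0243). Its groups did not overlap. Of the 29 other repair and checkpoint genes, 2 fell, Bard1 among them, the median was -0.17, and edgeR called 7 lower and 0 higher. E2f8, a repressor of the E2F family, had 20.3, 19.96 and 21.5 FPKM in the libraries labelled knockdown, against 30.3, 24.9 and 27.2 FPKM in those labelled control (log2 fold change -0.41, SE 0.08, limma adjusted p = 0.0427), and Cdkn1a, the cyclin-dependent kinase inhibitor p21, was the gene that rose, with 159.4, 162.6 and 166.6 FPKM in the libraries labelled knockdown, against 130.5, 135.2 and 138.7 FPKM in those labelled control (log2 fold change 0.27, SE 0.04, limma adjusted p = 0.0198). Both belong to the 23 tested G1/S regulators outside the 47 genes, whose median was -0.05 and of which edgeR called 3 lower and 3 higher, Cdkn1a among the higher.

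Other licensing and origin firing genes (17 tested), replisome genes (14), nucleotide supply genes (10) and replication chromatin genes (6) had 0 calls by limma. Their medians were -0.14, -0.11, -0.22 and -0.16. At an unadjusted limma p under 0.05, 6, 4, 5 and 3 of them were lower and 0, 1, 1 and 0 higher, and edgeR called 3, 4, 3 and 3 lower and 0 higher. Among 20 genes of G2 and mitosis, 5 fell and 0 rose by limma, with a median of -0.13. EdgeR called 8 of the 20 lower and 0 higher, with a median of -0.16. Over all tested genes, 1.61% were lower by limma and 4.5% by edgeR. The difference between these 20 genes and the 47 genes was not tested. Mki67, the proliferation marker, had 66.9, 65.8 and 69.0 FPKM in the libraries labelled knockdown, against 78.3, 79.3 and 85.3 FPKM in those labelled control (log2 fold change -0.27, SE 0.05, limma adjusted p = 0.036). Kif20a, a mitotic kinesin, fell by 0.34 on the log2 scale (limma adjusted p = 0.0167), Bub1, a spindle checkpoint kinase, by 0.32 (limma adjusted p = 0.0281), Birc5, survivin, by 0.20 (limma adjusted p = 0.0317) and Ccnb2, a mitotic cyclin, by 0.30 (limma adjusted p = 0.0416). The genes that the deposited table annotates with DNA replication numbered 35, of which 6 fell; 25 of the 35 are among the 47 genes, and the other 10 had 0 calls by limma, 1 lower and 1 higher at an unadjusted p under 0.05, 1 lower by edgeR, and a median of -0.02.

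The second deposited table pairs long noncoding RNA transcripts with coding genes. It pairs 37 transcripts with 25 of the 47 genes, of which 12 reached 0.1 FPKM in 3 libraries and were tested. None of the 12 passed by limma, where 4.26% of 4955 tested transcripts did, and 1 had an unadjusted p under 0.05; no count tool was run on this table. That transcript was ENSMUST00000140833 of Gm15728, divergent from Rfc5, with 0.127, 0.0282 and 0.0664 FPKM in the libraries labelled knockdown, against 0.154, 0.307 and 0.424 FPKM in those labelled control, a log2 fold change of -1.16 and a limma adjusted p of 0.254. AK042113, antisense to Pole2, had 0.404, 0.205 and 0 FPKM in the libraries labelled knockdown, against 0.560, 0.690 and 0.667 FPKM in those labelled control (log2 fold change -1.57, limma adjusted p = 0.312). Both had no overlap between groups, at levels under 1 FPKM. In the other direction, AK132408, antisense to Pold2, had 0.174, 0.443 and 0.206 FPKM in the libraries labelled knockdown. Those labelled control had 0, 0.0851 and 0.165 FPKM, without overlap (log2 fold change 1.07, limma adjusted p = 0.369). ENSMUST00000126668 of Gm12743, antisense to Orc1, was lower without overlap (log2 fold change -0.41). Of the 12 estimates, 8 were negative. The share without overlap over all tested transcripts was not computed. Whether strand was used in counting is not given in the sources used here, so reads of a gene and its antisense partner cannot be told apart. In 10 of the 47 genes the locus the table gives is over 5 times as long as the RefSeq gene, as for Cdt1 and Gins2, where neighbouring genes were merged into 1 locus.

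By position, 9 of the 47 genes lie on chromosome 5 (19.1%, against 6.38% of tested genes): Mcm7, Pole, Rfc1, Rfc2, Rfc3, Rfc5, Tyms, Pms2 and Brca2. Mcm7 and Pms2 fell among them and the other 7 did not pass. In RefSeq gene spans of GRCm38.p6, the 11 genes that fell lie as follows: Mcm2 at chr6:88883474-88898780 (minus strand), Mcm3 at chr1:20802966-20820312 (minus strand), Mcm5 at chr8:75109468-75128439 (plus strand), Mcm7 at chr5:138164583-138172111 (minus strand), Cdc6 at chr11:98907709-98923942 (plus strand), Cdt1 at chr8:122568015-122573130 (plus strand), Orc1 at chr4:108575705-108616030 (plus strand), Pold1 at chr7:44532744-44548815 (minus strand), Rfc4 at chr16:23113948-23127730 (minus strand), Rrm2 at chr12:24708254-24714146 (plus strand) and Pms2 at chr5:143909901-143972745 (plus strand).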

How the data were processed

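RNA was freed of ribosomal RNA and read as stranded libraries, per the labels' protocols, from 6 samples of mouse aortic smooth muscle cells. Per the submitters' processing notes, cutadapt, HISAT2 2.0.4, Cufflinks and Cuffdiff 2.2.1 were used, with mm10 and mm9 both named and their roles not given. No source used here gives the annotation or the strand setting. The authors deposited a table of 22565 rows for protein-coding genes (79 repeated symbols were summed, leaving 22482 genes) and a table of 56348 rows for 31550 lncRNA transcripts. Each holds FPKM values, normalized by the authors. Each also holds count columns, which the authors deposited as estimated counts multiplied by 1 constant per library (0.916 to 1.20). Divided by it, 89.5% to 90.5% of mRNA values above 0 were within 0.01 of a whole number, and these recovered fragments were rounded.

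The members and lists were chosen with earlier results of these data known. FPKM values are not counts, so the test was limma 3.58.1 with trend (R 4.3.3) on log2(FPKM + 0.1), two-sided, group as the sole term, adjusted by Benjamini and Hochberg over all 11612 tested genes, threshold 0.05. Fold changes on this scale understate changes of low genes. Alternatives were edgeR 4.0.16 (quasi-likelihood, TMM scaling) and DESeq2 1.42.0 on recovered fragments, other pseudocounts, filters and scalings, a replicate block, libraries left out and, added after seeing the data, limma on log2 fragments scaled to library size and median-centred. The limma and edgeR steps were tested on simulated data. Genes given per library are those that passed, the smallest p and the highest level in each role, the 2 largest falls and rises, and called genes of the other lists, up to 4 per direction; others named were chosen after their values were seen. A gene that this rule names is not reported here. The table's starts equalled RefSeq GRCm38.p6 starts for 6261 genes after adding 1, against 472 without.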

Additional observations from a re-analysis of the deposited data

How the results depend on the processing

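The direction of the 11 genes that fell, and the 0 genes of the set that rose, held under every alternative run. The numbers of the 47 genes that fell, of all genes called, and the median log2 fold change of the 47 genes (11, 400 and -0.23) became 15, 1150 and -0.19 with edgeR, 17, 1168 and -0.19 with edgeR and no filter, 14, 723 and -0.19 with DESeq2, 14, 1079 and -0.19 with limma on scaled fragments, and 0, 76 and -0.20 without both replicate 3 libraries. Without the intensity trend 5 of the 47 genes and 144 of all genes passed, and with library weights 624 of all genes did. The median was -0.22 with a pseudocount of 1 and -0.21 with median centring. Deviations from the group means correlated at 0.037, -0.004 and 0.0999 between same-numbered libraries, replicate 3 highest. The numbers were not taken as pairs in the main fit, and no cut-off for that choice was fixed in advance. With the replicate block as an alternative, 8 of the 47 genes and 243 of all genes passed. With 1 library left out, which leaves fewer samples, the ranges were 1 to 7 genes, 44 to 178 genes and -0.25 to -0.19. Mcm5, Cdc6, Cdt1, Pold1 and Rfc4 passed in all 14 other settings that used all 6 libraries. Of the same 14, Mcm3 and Mcm7 passed in 13, Mcm2 and Rrm2 in 12, Orc1 in 10 (DESeq2 gave it no adjusted p) and Pms2 in 7. Without both replicate 3 libraries, 0 of these genes passed. The cause of these differences was not tested.

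Genes of the set whose estimate changed sign were all uncalled. With edgeR, edgeR and no filter, DESeq2 and scaled fragments, Rfc5 stood at -0.19. Brca2 stood at 0.024 with quantile normalization, 0.015 with median centring, 0.0025 with edgeR, 0.0011 with DESeq2 and 0.0067 in scaled fragments. With median centring Pcna stood at 0.018 and Rfc3 at 0.0064, and with library weights Rfc2 stood at 0.011 and Rfc3 at 0.023. Without both replicate 3 libraries Pold2 stood at 0.083, Pole at 0.0088, Rfc2 at 0.068 and Rfc3 at 0.087. With 1 library left out, the ranges across 0 were -0.053 to 0.14 for Orc6, -0.065 to 0.039 for Pcna, -0.13 to 0.13 for Rfc3, -0.087 to 0.14 for Rfc5, -0.060 to 0.039 for Brca2, -0.082 to 0.019 for Pole, -0.16 to 0.061 for Ccne2 and -0.094 to 0.031 for Rfc2.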

Other observations

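A ratio formed after the values were seen sets a member of the set against the gene of its inhibitor. Cdt1 over Gmnn, the gene of the inhibitor geminin that holds Cdt1, was 0.683, 0.629 and 0.767 in FPKM in the libraries labelled knockdown, against 0.840, 0.790 and 0.838 in those labelled control, with no overlap. The ratio was not tested.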
